A study of Homo sapiens with 19 samples.

Results

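A set of 9 genes known from organ metastasis of MDA-MB-231 breast cancer cells was examined for superenhancers and for binding of OCT-2 around them: COL13A1, KRT81, NEDD9, ANGPTL4, ST6GALNAC5, MMP1, IL11, PTGS2 and CXCR4. They are 9 of the 20033 protein-coding genes that RefSeq places on chromosomes of GRCh38 (hg38), and each was located by symbol. At each gene the deposited regions were taken within 10, 50 and 200 kb of the gene body, the span between both ends of the annotated gene. MDA-MB-231 is a triple-negative line of basal and mesenchymal character, and the cells compared are polyclonal derivatives of 231Pa cells with stable transgenes, grown in DMEM with serum. 231Pa_Luc+OCT-2 cells carry luciferase and POU2F2, the gene of OCT-2, and 231Pa_Luc+GFP cells carry luciferase and GFP. H3K27ac was precipitated from both populations, and OCT-2 from 231Pa_Luc+OCT-2, with 2 replicates each, which makes 6 of the 19 samples of the study. No input sample of either population is among the samples. The labels do not name the promoter of the transgenes or say whether the replicates were separate cultures.

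The values are positions of regions, 1 list per population and target, built by the authors from both replicates. The 231Pa_Luc+OCT-2 list holds 518 superenhancers and the 231Pa_Luc+GFP list holds 337, and 5736 OCT-2 peaks lie on placed chromosomes. The lists carry no read counts, heights or values per replicate, so the depth is unknown, no spread between replicates can be given and no difference between the populations could be tested. Counts of members are read beside the share of all protein-coding genes that meets the same criterion, which is a description and not a test. Of the markers of mesenchymal triple-negative cells (VIM, CD44, AXL, ITGB1 and EGFR), 5 of 5 lay within 10 kb of a superenhancer in both populations. Of 5 luminal and 4 leukocyte markers, 0 did so in either list, and of 3 endothelial markers 0 did so in 231Pa_Luc+OCT-2 and 1 (PECAM1) in 231Pa_Luc+GFP. The share of all protein-coding genes was 5.75% in 231Pa_Luc+OCT-2 and 4.31% in 231Pa_Luc+GFP. With so few markers per list, a count of 0 is near these shares.

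Superenhancers are long stretches of dense H3K27 acetylation, a mark of active enhancers, and often lie at genes that define a cell's state. OCT-2 is a POU-domain transcription factor, best known from B lymphocytes, that binds the octamer element. Sublines of MDA-MB-231 that colonise bone, lung or brain of mice have been used to define genes of organ-specific metastasis. IL11, CXCR4 and MMP1 are known from bone, where they act in osteoclast activation, homing and matrix cleavage. ANGPTL4, PTGS2, MMP1, NEDD9 and KRT81 belong to the genes known from lung, and ST6GALNAC5, PTGS2 and COL13A1 to those known from brain.

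The promoters of COL13A1 and NEDD9 are shown because an OCT-2 peak of 231Pa_Luc+OCT-2 lay over a listed start site of each. Both sequences are RefSeq promoter windows of GRCh38.p14, from 250 bases before to 50 after the start, 5′ to 3′ in the direction of the gene, and the capitals mark the bases under the peak. The COL13A1 window is chr10:69801656-69801955 on the plus strand. The NEDD9 window is chr6:11232619-11232918 on the minus strand, at a start inside the annotated gene.
COL13A1: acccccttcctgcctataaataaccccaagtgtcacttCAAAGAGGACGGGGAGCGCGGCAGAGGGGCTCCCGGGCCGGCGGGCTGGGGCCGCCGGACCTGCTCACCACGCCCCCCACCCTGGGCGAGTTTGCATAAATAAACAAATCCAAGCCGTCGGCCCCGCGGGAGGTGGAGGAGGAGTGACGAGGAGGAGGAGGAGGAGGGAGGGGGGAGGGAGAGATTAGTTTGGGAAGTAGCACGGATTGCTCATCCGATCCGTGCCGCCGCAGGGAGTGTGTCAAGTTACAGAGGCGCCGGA
NEDD9: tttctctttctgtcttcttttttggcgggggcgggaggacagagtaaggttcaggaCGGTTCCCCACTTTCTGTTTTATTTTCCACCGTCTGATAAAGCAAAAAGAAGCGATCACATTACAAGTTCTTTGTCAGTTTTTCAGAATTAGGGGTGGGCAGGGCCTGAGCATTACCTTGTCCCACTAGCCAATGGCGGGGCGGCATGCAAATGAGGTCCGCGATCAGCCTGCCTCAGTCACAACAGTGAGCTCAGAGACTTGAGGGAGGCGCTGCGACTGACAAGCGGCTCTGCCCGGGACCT

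Each window held an octamer or a near match under its peak. In the NEDD9 window the octamer ATGCAAAT was present in full, 49 bases before the start (chr6:11232710-11232717) and 9.5 bp from the middle of the peak. In the COL13A1 window the closest stretch, GTTTGCAT, matched ATTTGCAT, the complement of the octamer, in 7 of 8 letters, 123 bases before the start (chr10:69801783-69801790) and 56 bp from the middle of the peak. Stretches of 30 bases around both are given with the 8 letters in capitals.
COL13A1: accctgggcgaGTTTGCATaaataaacaaa
NEDD9: ggcggggcggcATGCAAATgaggtccgcga

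Listed promoter windows were found for 7 of the 9 genes (11 windows); KRT81 and MMP1 had none in the table. A peak overlapped a window of 2 of these 7 genes, against 2.27% of the 15842 protein-coding genes with a window. The other 9 windows of the 7 genes lay under no peak and matched the octamer in at most 6 of 8 letters. NEDD9 has another pair of listed starts at the upper end of the gene, which lay 52.6 kb from the nearest peak. For the shares that follow, a window counted as under a peak if a peak overlapped it by at least 1 bp. The match could lie anywhere in the window. Searched on both strands, the octamer was present in 17.1% of the 392 promoter windows under an OCT-2 peak. It was present in 1.66% of all 22198 windows of protein-coding genes. At least 7 of 8 letters were matched in 32.7% of the windows under a peak and in 13.5% of all. TGANTCA, the AP-1 element, was present in 7.91% of the windows under a peak and in 6.15% of all, and GGAATG, the core of the TEAD element, in 16.3% and 12.2%. Neither the NEDD9 nor the COL13A1 window under a peak held TGANTCA or GGAATG. The search covered the promoter windows alone, since no genome sequence was used here, and peaks outside them were not searched.

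**Figure D1:**
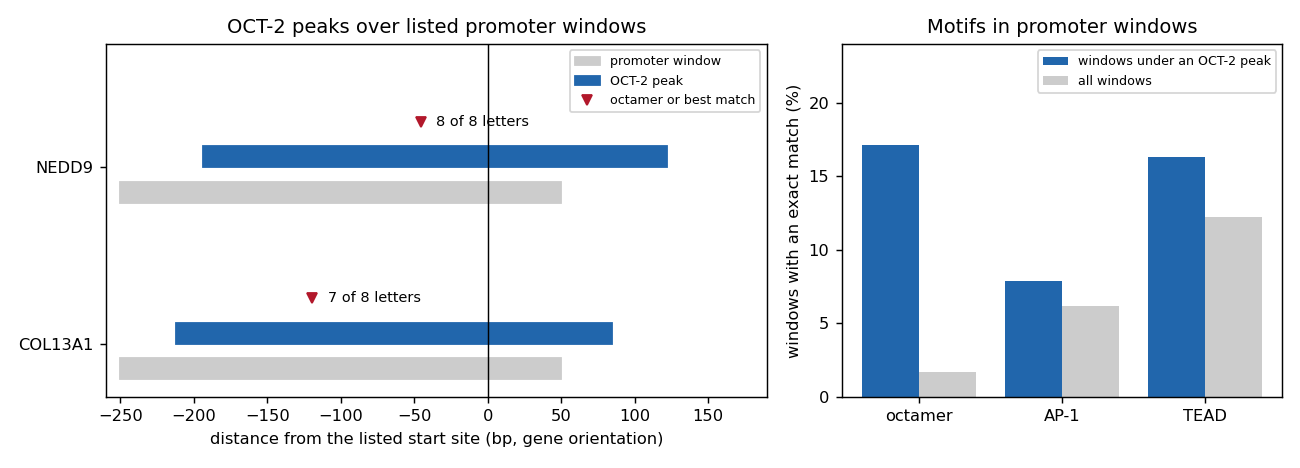
Left, position of OCT-2 peaks of 231Pa_Luc+OCT-2 (blue) relative to the listed start site of NEDD9 (the start inside the gene) and COL13A1 in bp, with the promoter window in grey and the octamer or its best match as a red triangle, 49 and 123 bases before the start. Right, percent of promoter windows of protein-coding genes with an exact match, anywhere in the window, to the octamer, AP-1 or TEAD letters. Bars are for the 392 windows that an OCT-2 peak overlapped by at least 1 bp and for all 22198. The octamer bars stand at 17.1% and 1.66%.

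Superenhancers were present at COL13A1 and KRT81 and at none of the other 7 genes. In 231Pa_Luc+OCT-2, 2 of the 9 genes lay within 10 kb of a superenhancer, against 5.75% of all protein-coding genes. The same 2 genes were counted within 50 kb (7.92% of all genes) and within 200 kb (15.8% of all genes). In 231Pa_Luc+GFP, 1 of 9 lay within 10 kb, against 4.31% of all genes, and 2 of 9 lay within 50 kb (5.81%) and within 200 kb (11.8%). With 9 genes, 1 gene more or less moves these counts as much as the difference between the populations. Both regions at these genes were shared, as each overlapped a region of the other list.

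**Figure D2:**
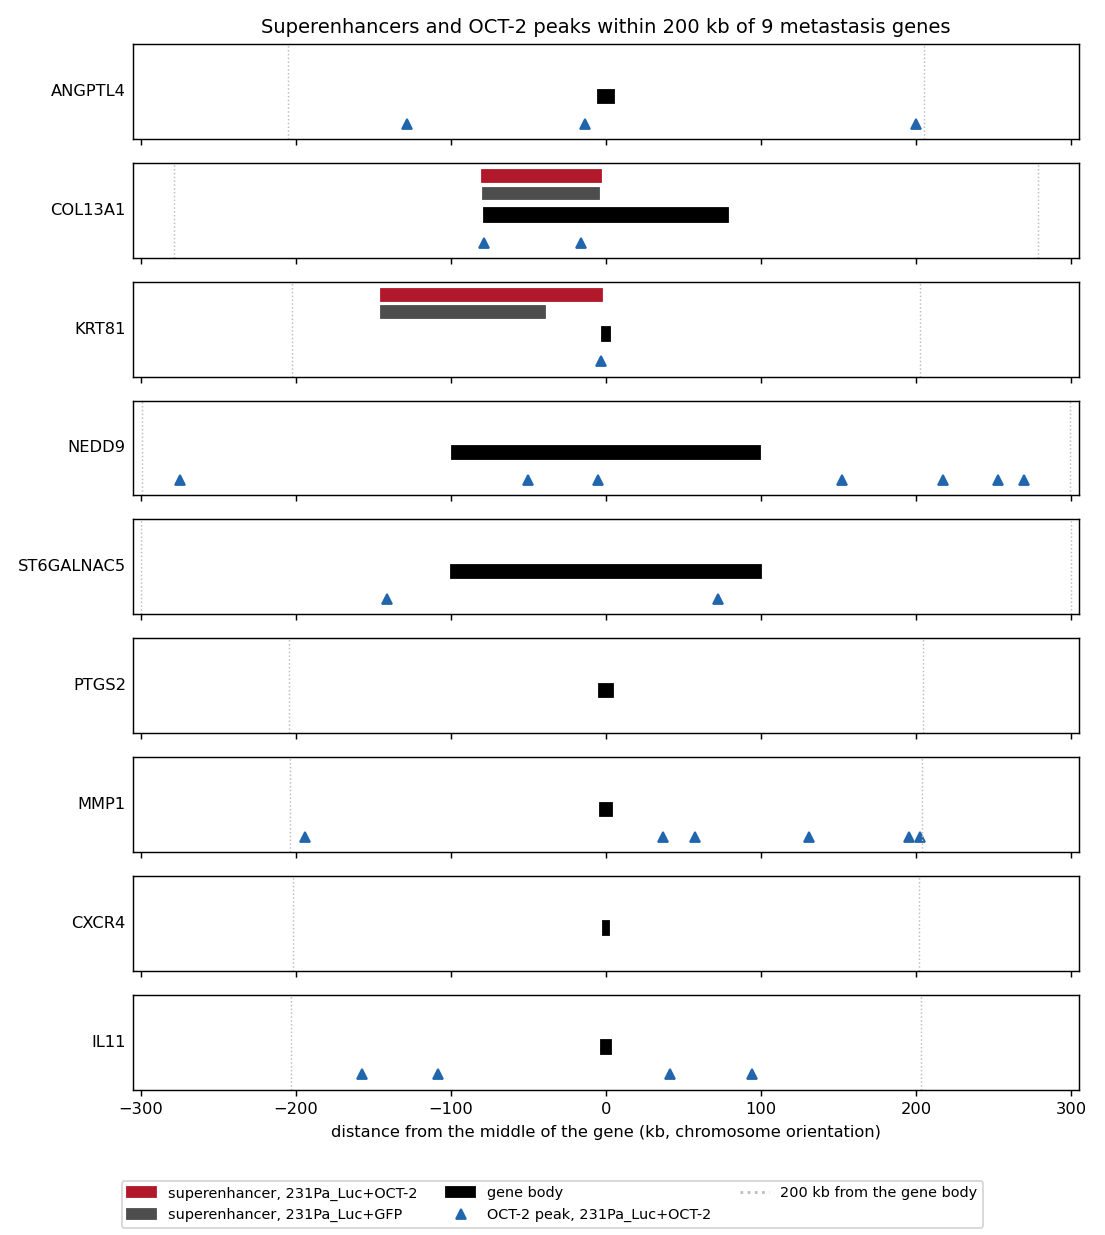
Each panel shows 1 gene, with distance from the middle of the gene in kb along the chromosome; red bars are superenhancers of 231Pa_Luc+OCT-2, dark grey bars those of 231Pa_Luc+GFP, black bars gene bodies, blue triangles OCT-2 peaks of 231Pa_Luc+OCT-2, and dotted lines the 200 kb limit. Superenhancers appear at COL13A1 and KRT81 alone, and peaks around 7 of the 9 genes.

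COL13A1, a transmembrane collagen of cell-matrix adhesions, had nearly the same superenhancer in both populations. The region spanned chr10:69800811-69877232 in 231Pa_Luc+OCT-2 (76.4 kb) and chr10:69801051-69875705 in 231Pa_Luc+GFP (74.7 kb). COL13A1 was the only protein-coding gene that either region overlapped, and they covered 47.9% of its 157 kb body in 231Pa_Luc+OCT-2 and 46.9% in 231Pa_Luc+GFP, in each case the part that begins at the start site. The edges differed by 240 bp at the start of the gene and by 1.53 kb inside it. The region held 2 OCT-2 peaks in 231Pa_Luc+OCT-2. The first was the promoter peak shown above (chr10:69801694-69801991), which also met the neighbouring noncoding gene LOC124902444, and the second lay 62.5 kb into the gene (chr10:69864233-69864544). Whether the second is exonic or intronic is not given by the gene table. No further peak lay within 200 kb, and the next was 584 kb away. With 2 peaks the region had a density of 26.2 peaks per Mb (exact Poisson 95% interval 3.17 to 94.5, counting error only). All 231Pa_Luc+OCT-2 superenhancers together had 17.9 per Mb (16.8 to 19.1), and 78.4% of them held a peak. Among protein-coding genes, 3.63% had at least 2 peaks within 10 kb. COL13A1 is long, and of the 3543 protein-coding genes of 0.5 to 2 times its length 30.5% had a peak within 10 kb, against 15.5% of all. Of the fixed list of other transmembrane collagens and integrin subunits, COL17A1, COL23A1, COL25A1, ITGA1 and ITGB1, 1 of 5 (ITGB1) lay within 10 kb of a superenhancer in either population, and 2 of 5 (COL25A1 and ITGA1) had a peak within 10 kb. The shares of all protein-coding genes were 5.75% for 231Pa_Luc+OCT-2 superenhancers, 4.31% for 231Pa_Luc+GFP superenhancers and 15.5% for peaks.

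At KRT81, a hair keratin gene, the superenhancer reached the gene in the OCT-2 cells. In the control cells it ended 36.4 kb from the gene's lower end by chromosome coordinate. KRT81 had no listed start site, so these distances are to the ends of the gene by coordinate and not to its promoter. In 231Pa_Luc+OCT-2 the region spanned chr12:52143619-52286325 (143 kb) and in 231Pa_Luc+GFP chr12:52143454-52249494 (106 kb). The lower edges differed by 165 bp, while the upper edge lay 36.8 kb further out in 231Pa_Luc+OCT-2. The part of KRT81 covered in the OCT-2 cells was small, 413 of 5622 bp (7.35%), at the lower end of the gene. The region overlapped KRT80, KRT7, KRT86 and KRT81 in 231Pa_Luc+OCT-2, and KRT80 and KRT7, which encode keratins of epithelia, in 231Pa_Luc+GFP. KRT7 was covered in full in 231Pa_Luc+OCT-2 and to 71.9% in 231Pa_Luc+GFP, and KRT86, another hair keratin, to 33.8% in 231Pa_Luc+OCT-2 and 0% in 231Pa_Luc+GFP. Of the hair keratin genes next in line, KRT83 lay 28.0 kb from the 231Pa_Luc+OCT-2 region and 64.8 kb from the 231Pa_Luc+GFP region, and KRT85 73.7 and 111 kb. The single OCT-2 peak within 200 kb of KRT81 (chr12:52285296-52285651) lay in the added stretch, 262 bp from the lower end of KRT81 and inside the body of KRT86. This made 7.01 peaks per Mb (0.177 to 39.0) in the 231Pa_Luc+OCT-2 region, and the stretch that the 231Pa_Luc+GFP region covered held no peak of the OCT-2 list. The next peak was 1039 kb from KRT81. In the RefSeq table KRT81 lies wholly inside the annotated body of KRT86 (chr12:52274645-52309163), so the peak and the region's edge at KRT81 are also within KRT86. The hair keratin genes are close paralogs, and the sources used here do not say how reads with several matching positions were treated, which was not tested.

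**Figure D3:**
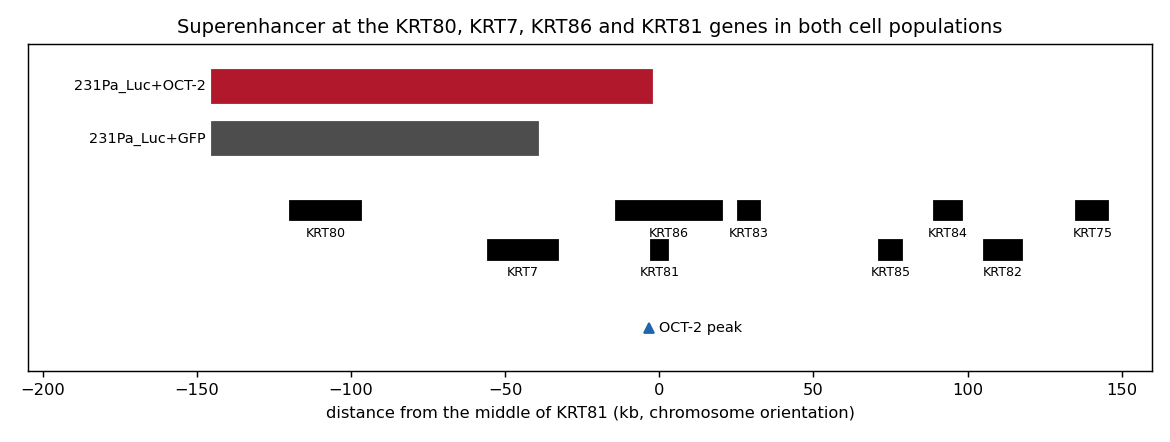
Superenhancer at the keratin genes of chromosome 12 in 231Pa_Luc+OCT-2 (red) and 231Pa_Luc+GFP (dark grey), with gene bodies in black and the OCT-2 peak of 231Pa_Luc+OCT-2 as a triangle, by distance from the middle of KRT81 in kb. The regions begin together, and that of the OCT-2 cells ends 36.8 kb further along, at KRT81 and the peak.

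Among superenhancers paired 1 to 1 between the lists, gains of this width were fewer than losses of it. Regions found in 1 list alone are outside these pairs and were more frequent in 231Pa_Luc+OCT-2. There 314 of 518 regions (60.6%) overlapped the other list, against 308 of 337 (91.4%) in 231Pa_Luc+GFP. In 297 pairs 1 region of each list overlapped only the other, and 107 were wider in 231Pa_Luc+OCT-2 and 190 narrower. Most edges barely moved, with 74.7% of 594 edges within 5 kb of each other. The region at KRT81 was 36.7 kb wider in 231Pa_Luc+OCT-2, 1.35 times its width in 231Pa_Luc+GFP. A gain at least as large was found in 15 of 297 pairs (5.05%), and a loss at least as large in 39 (13.1%). By gene, KRT81 was the 1 member of 9 within 10 kb of a superenhancer in 231Pa_Luc+OCT-2 and of none in 231Pa_Luc+GFP, against 2.02% of all protein-coding genes (404). In 29 of these 404 genes the region was shared and reached the gene in 1 list only, as at KRT81. The reverse, a superenhancer within 10 kb in 231Pa_Luc+GFP and none in 231Pa_Luc+OCT-2, applied to 0 of 9 members and to 0.584% of all genes (117, of which 71 by a shared region). The authors' rule for joining enhancers into a superenhancer sets such edges, and the sources used here do not state it.

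**Figure D4:**
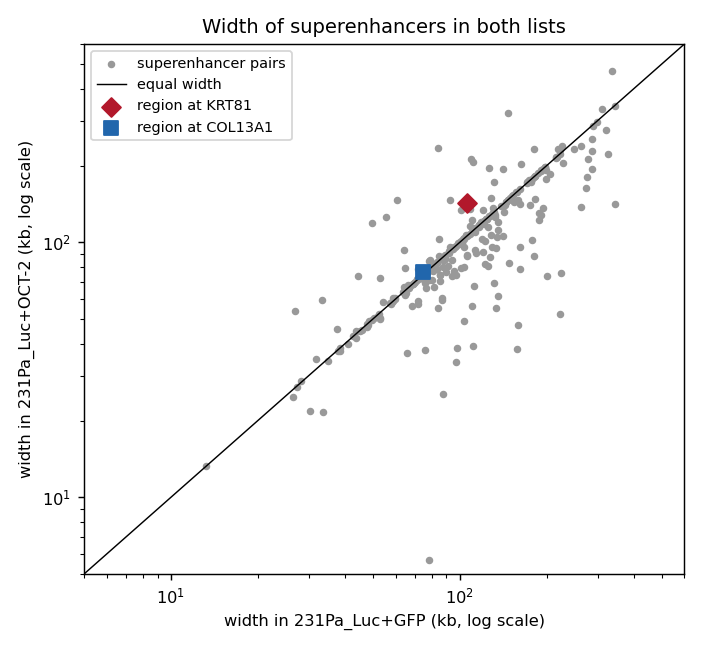
Width of 297 paired superenhancers in 231Pa_Luc+OCT-2 (vertical axis) against 231Pa_Luc+GFP (horizontal axis), in kb on log scales, with the line of equal width. The region at COL13A1 (square) lies on the line, and that at KRT81 (diamond) above it at 143 kb in 231Pa_Luc+OCT-2 and 106 kb in 231Pa_Luc+GFP; 190 of the 297 pairs lie below it.

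The other 7 genes had their nearest superenhancer 440 kb or more away. For MMP1, ANGPTL4 and IL11 the nearest was a different region in each population. The share of all protein-coding genes with a different nearest region was not computed. The 231Pa_Luc+OCT-2 list is also the longer, 518 regions against 337, and the distances were not adjusted for this. The nearest 231Pa_Luc+OCT-2 superenhancer to MMP1 ended 440 kb away (chr11:102219966-102349793, 130 kb, at YAP1, BIRC3 and BIRC2) and overlapped no 231Pa_Luc+GFP region. In 231Pa_Luc+GFP the nearest lay 6446 kb away, at MAML2. For ANGPTL4 the nearest was 2661 kb away in 231Pa_Luc+OCT-2, a region absent from the control list, and 4621 kb in 231Pa_Luc+GFP. For IL11 the distances were 8314 kb in 231Pa_Luc+OCT-2 and 9835 kb in 231Pa_Luc+GFP. NEDD9 (730 kb, at TFAP2A), PTGS2 (3389 kb), ST6GALNAC5 (8191 kb) and CXCR4 (2804 kb in 231Pa_Luc+OCT-2 and 2802 kb in 231Pa_Luc+GFP) had the same nearest superenhancer in both lists. The median distance over the 9 genes was 2.66 Mb in 231Pa_Luc+OCT-2 and 3.39 Mb in 231Pa_Luc+GFP, against 1.55 and 2.52 Mb over all protein-coding genes.

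OCT-2 peaks lay near more of the genes than superenhancers did. Within 10 kb of the gene body 5 of 9 genes had a peak (COL13A1, NEDD9, ST6GALNAC5, ANGPTL4 and KRT81), against 15.5% of all protein-coding genes. Within 50 kb MMP1 and IL11 were added, 7 of 9, against 28.9% of all. Within 200 kb it was the same 7 of 9, against 58.1%. PTGS2 and CXCR4 had 0 peaks within 200 kb. The 7 genes together had 7 peaks within 10 kb, 10 within 50 kb and 25 within 200 kb, and their median distance to a peak, over all 9, was 8.02 kb, against 145 kb for all protein-coding genes. Of the 25 peaks, 5 lay in a member's body and 8 had the member as their nearest protein-coding gene. Shares of all peaks were not computed for these counts. In superenhancers of 231Pa_Luc+OCT-2, those of COL13A1 and KRT81, lay 3 of the 25, against 15.8% of all 5736 OCT-2 peaks. NEDD9, ST6GALNAC5 and ANGPTL4 had a peak within 10 kb and no superenhancer within 200 kb in either population. The share of all protein-coding genes that meets both criteria was not computed. Of all protein-coding genes, 15.8% had a superenhancer within 200 kb in 231Pa_Luc+OCT-2 and 11.8% in 231Pa_Luc+GFP. The study holds no sample of OCT-2 precipitated from 231Pa_Luc+GFP. Binding of the cells' own OCT-2 and of that from the transgene therefore cannot be told apart.

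**Figure D5:**
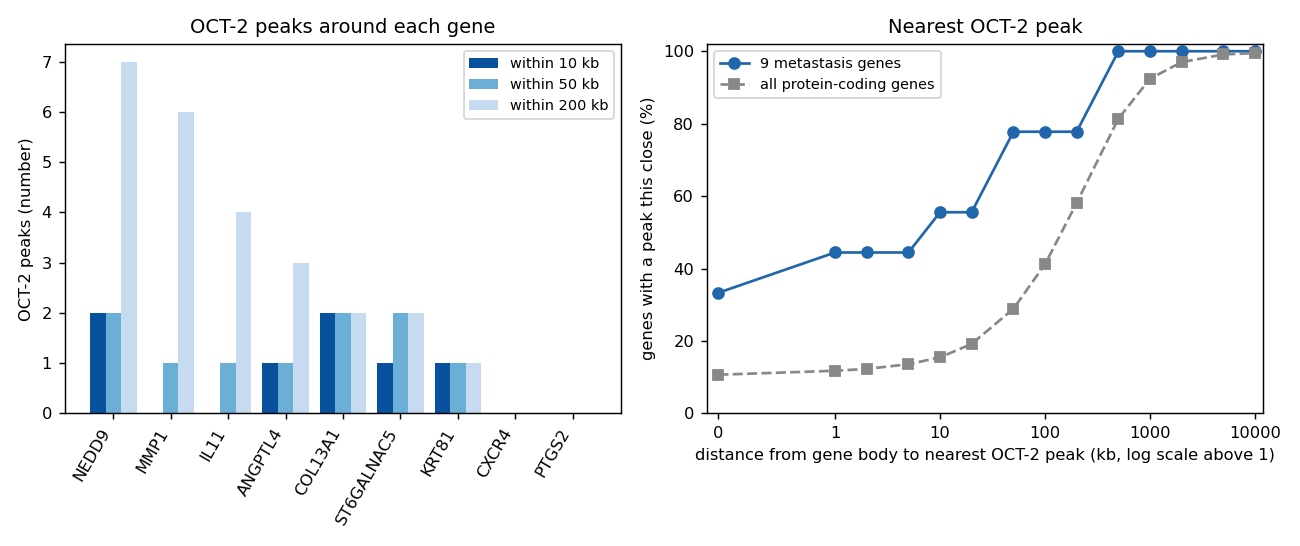
Left, number of OCT-2 peaks of 231Pa_Luc+OCT-2 within 10, 50 and 200 kb of each gene body, ordered by the count within 200 kb, which runs from 7 at NEDD9 to 0 at CXCR4 and PTGS2. Right, percent of genes whose nearest peak lies within a given distance in kb (log scale above 1), for the 9 metastasis genes (circles) and all protein-coding genes (squares); at 10 kb the curves stand at 5 of 9 genes and 15.5%.

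NEDD9, a scaffold protein of focal adhesions that acts in cell migration, had the most peaks of the 9 within 200 kb, and shared the highest count, 2, with COL13A1 within 10 kb. Its 199 kb body (chr6:11183298-11382348, minus strand) held 2 peaks, and 7 lay within 200 kb, a number reached by 1.19% of protein-coding genes. That share is over genes of all lengths and was not matched for length, and a longer body makes a wider window. The first peak in the body (chr6:11232546-11232862) was the one over the inner start and its octamer. The second (chr6:11277223-11277492) lay between the inner and the outer starts. Beyond the upper end of the gene, peaks followed at 52.6, 118, 153 and 170 kb, of which the last 3 were nearer to TMEM170B, and 1 lay on the other side at 175 kb in ELOVL2. The peak at 52.6 kb and that at 118 kb lay in the noncoding gene LOC105374928. Long genes hold peaks more often, and of the 2886 protein-coding genes of 0.5 to 2 times the length of NEDD9 30.8% had a peak in the body. Its fixed focal adhesion partners include the kinases PTK2 and SRC and the adaptors BCAR1 and CRK. Of these partners, 3 of 7 had a peak within 10 kb (PTK2, PTK2B and CRK), against 15.5% of all protein-coding genes. PTK2 alone lay within 10 kb of a superenhancer, in 231Pa_Luc+OCT-2 (5.75% of all genes) and not in 231Pa_Luc+GFP (4.31%).

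ST6GALNAC5, a sialyltransferase normally found in brain, had 1 peak in its 200 kb body and 1 outside. The first (chr1:77039871-77040138) lay 173 kb from the start and 27.5 kb from the far end of the gene, and the second (chr1:76826168-76826419) 41.1 kb before the start. No other peak lay within 200 kb of the gene. For genes of 0.5 to 2 times its length the share with a peak in the body was 30.9%. Of its 5 family members on the fixed list, ST6GALNAC2 alone had a peak within 10 kb, against 15.5% of all protein-coding genes. In either population 0 of 5 had a superenhancer within 200 kb, against 15.8% of all genes in 231Pa_Luc+OCT-2 and 11.8% in 231Pa_Luc+GFP.

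ANGPTL4, a secreted inhibitor of lipoprotein lipase that in mouse models loosens lung capillaries, had a single peak within 50 kb. It lay 8.02 kb before the start (chr19:8355844-8356139), overlapped no annotated gene and had ANGPTL4 as its nearest protein-coding gene. A further 2 peaks at 123 and 195 kb lay in CERS4 and MYO1F. Of short genes, those of 0.5 to 2 times its 10.2 kb, 8.80% had a peak within 10 kb. Of its 7 fixed regulators and targets, PPARD (a nuclear receptor of fatty acids) and SMAD3 (a TGF-β effector) lay within 10 kb of superenhancers in both populations, and PPARD alone had peaks within 10 kb (2). Of all protein-coding genes, 5.75% met the superenhancer criterion in 231Pa_Luc+OCT-2 and 4.31% in 231Pa_Luc+GFP, and 15.5% that for peaks.

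MMP1, the interstitial collagenase, had 0 peaks within 10 kb, 1 within 50 kb and 6 within 200 kb. At least 6 were found at 2.16% of protein-coding genes. The nearest (chr11:102830328-102830720) was 32.2 kb from the gene, in the pseudogene WTAPP1, and 5081 bp from MMP3, the stromelysin gene. Peaks at 53.2, 127, 191 and 198 kb followed on the same side, the first of them nearest to MMP3 and the others to MMP13, the collagenase-3 gene. The 1 peak on the other side, at 190 kb, lay in MMP20. The fixed list of other matrix metalloproteinases, inhibitors and the MMP1 substrate receptor F2R had 1 of 9 with a peak within 10 kb (MMP3), against 15.5% of all protein-coding genes. It had 1 of 9 within 10 kb of a superenhancer, MMP14, in both populations, against 5.75% in 231Pa_Luc+OCT-2 and 4.31% in 231Pa_Luc+GFP. MMP1, MMP3 and MMP13 are neighbours and share these peaks, so their counts are not independent.

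IL11, a cytokine of the IL6 family that promotes osteoclast formation, had 0 peaks within 10 kb and 4 within 200 kb, a number reached by 7.69% of protein-coding genes. All 4 lay nearer to another gene. That at 37.8 kb (chr19:55408256-55408499) was 468 bp from UBE2S, those at 105 and 154 kb were 158 bp from PPP6R1 and 563 bp from PTPRH, and that at 91.2 kb lay in ISOC2. Of the 7 fixed genes of interleukin-11 signalling, the kinase JAK1, the transcription factor STAT3 and its feedback inhibitor SOCS3 had a peak within 10 kb, at most 129 bp from the gene body. SOCS3 was the only one of the 7 at a superenhancer within 10 kb, in both populations. Of all protein-coding genes, 15.5% had a peak within 10 kb. A superenhancer lay this close to 5.75% in 231Pa_Luc+OCT-2 and to 4.31% in 231Pa_Luc+GFP.

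PTGS2, the inducible cyclooxygenase of prostaglandin synthesis, and CXCR4, the receptor of the chemokine CXCL12, had neither a superenhancer nor a peak within 200 kb. In this they matched 39.5% of protein-coding genes. The peak nearest to PTGS2 lay 278 kb away (chr1:186958624-186958875), in the body of PLA2G4A, the phospholipase that releases the arachidonic acid used by PTGS2. The peak nearest to CXCR4 lay 257 kb away and overlapped no annotated gene. Of 10 fixed genes of prostaglandin synthesis and reception, 4 had a peak within 10 kb (PTGS1, PLA2G4A and the receptors PTGER2 and PTGER4), and 0 a superenhancer within 10 kb in either population. Of the 4 genes of the CXCR4 axis, GNAI2, a G-protein subunit, had a peak and a 231Pa_Luc+OCT-2 superenhancer within 10 kb and no 231Pa_Luc+GFP superenhancer, and CXCL12, ACKR3 and ARRB2 had none of these. Beside both lists, the shares of all protein-coding genes at 10 kb were 15.5% for peaks, 5.75% for 231Pa_Luc+OCT-2 superenhancers and 4.31% for 231Pa_Luc+GFP superenhancers.

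A wider list of 30 genes known from metastasis of this line held 10 with a peak within 10 kb, against 15.5% of all protein-coding genes. The 10 were EREG, TNC, KYNU, LTBP1, CSF3, PELI1, CCN2, FST, SRGN and ROBO1. Some of them, such as ROBO1 and LTBP1, are long. The shares beside this list and the other fixed lists were not matched for gene length. At 10 kb, 4 of the 30 lay at superenhancers of 231Pa_Luc+OCT-2 (ID1, HBEGF, CSF3 and DUSP1), against 5.75% of all protein-coding genes. The count was 2 of 30 for 231Pa_Luc+GFP (HBEGF and DUSP1), against 4.31% of all. CSF3, a growth factor of granulocytes, was the single gene of the 30 with both a peak and a 231Pa_Luc+OCT-2 superenhancer within 10 kb. Among the 9, COL13A1 and KRT81 had both. The share of all protein-coding genes with both was not computed. Of all 231Pa_Luc+OCT-2 superenhancers, 78.4% held a peak, so these criteria are not independent. Genes most like each member were sought among 92 genes of the fixed lists, by the summed difference over 9 values: presence of a superenhancer in each list and log2(1 + number of peaks), at 10, 50 and 200 kb. KRT81 had the same values as KRT86, inside whose annotated body it lies, and as no other protein-coding gene; a region or peak at KRT81 is thus counted for KRT86 as well. NEDD9 shared all 9 values with no gene and was nearest to MMP3 (0.415). Among the 92, COL13A1 was nearest to SMAD3 (1.58), MMP1 to its neighbour MMP10 (0.485), IL11 also to MMP10 (0), ANGPTL4 to SRGN (0) and ST6GALNAC5 to LTBP1 (0). Of all protein-coding genes, 164 had the same 9 values as ANGPTL4, 130 as ST6GALNAC5, 83 as IL11, 9 as COL13A1 and 8 as MMP1. The genes named are thus the nearest on the lists and not the only ones alike. PTGS2 and CXCR4 had the same values as 19 of the 92.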

How the data were processed

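The files are lists of regions deposited by the authors, with start, end and a name whose last number, 2 or 3 in the lists used, was read as the number of merged calls. Per the labels, the lists combine replicates 1 and 2. Tools named, without roles, in the submitters' processing notes are HOMER, bedtools, Bowtie and Bowtie2 (2.2.2.6). Calling thresholds are not stated there. Of 10 lists, the 3 in hg38 were used. The other 7 are in hg19, by their names or, for MDA-MB-436, by region ends beyond the last hg38 gene, and were not used, because the gene table is of GRCh38 and coordinates were not converted. 5 of 5741 OCT-2 peaks, on unplaced contigs, were left out.

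Distances run from the gene body to the nearest edge of a region, and 0 means overlap. A superenhancer counted as shared if it overlapped the other list by at least 1 bp. Motifs were searched in RefSeq promoter windows of 300 bases on both strands. No test was run. The 9 genes and the lists were chosen with earlier results of these data known. Named genes are the members, genes overlapping their regions, the gene nearest to each peak within 50 kb, list genes with a superenhancer or peak within 10 kb, and the list genes most like a member. Genes at farther peaks or superenhancers, other list genes and the AP-1, TEAD and 7-letter searches were added after values were seen. Distance counting was tested on planted regions. Alternatives were the start site or either gene end alone, the widest regions, peak centres and stricter overlap. Python 3.11.15, numpy 2.4.6, pandas 2.3.3, scipy 1.17.1 and matplotlib 3.10.9 were used.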

Additional observations from a re-analysis of the deposited data

How the results depend on the processing

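Of 35 values recomputed under alternatives, 25 stayed within 1.5 times the count reported and 10 did not. Distances from the start site alone, known for 7 of the 9 genes, left 1 gene (COL13A1) near a superenhancer of 231Pa_Luc+OCT-2 within 10, 50 and 200 kb, and 1 near one of 231Pa_Luc+GFP within 50 and 200 kb, because KRT81 has no listed start. By the start site 3 genes (COL13A1, ANGPTL4 and NEDD9) had an OCT-2 peak within 10 kb: KRT81 has no listed start, and the peak of ST6GALNAC5 lies deep in its body. By either end of the gene, an alternative chosen after seeing the data, it was also 3 (COL13A1, ANGPTL4 and KRT81), because the peaks of NEDD9 and ST6GALNAC5 lie deep in the body. Only 3 of the peaks merge more than 2 calls, and with those alone 0 genes had a peak within 10, 50 or 200 kb. With the widest 337 superenhancers of 231Pa_Luc+OCT-2, with regions above the lower quartile of width, with peak centres and with an overlap of at least 50% of the shorter region, the counts of genes were within 1.5 times those reported. No paired analysis was possible because each list merges both replicates and no test was made; for the same reason no replicate could be left out. The lists hold no depth or height, so a gene without a region cannot be told from 1 just under the authors' threshold.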
